A study of Mus musculus with 19 samples.

Results

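Midkine (Mdk), pleiotrophin (Ptn) and 8 genes that encode proteins to which these ligands bind (Ptprz1, Alk, Sdc1, Sdc2, Sdc3, Sdc4, Lrp1 and Ncl) were followed from E10.5 to E12.5 in single cells of the mouse thymic primordium. These 10 genes, chosen by name, were all present among the 54179 genes of the deposited read table, of which 21964 are protein-coding. The cells were EPCAM+PLET1+ cells of wild type C57BL/6 embryos, taken from the primordia at E10.5, the stage of the third pharyngeal pouch, or at E12.5, with no treatment, and were sorted singly into the wells of plates that carry a molecular index. Each stage had 4 plates in that table, which the titles letter a, b, c and d (E10.5) or a and c to e (E12.5), and 356 cells at E10.5 and 355 at E12.5 passed filters rebuilt from limits in the methods of the study. These numbers per stage are not the ones that the study states. A further E12.5 plate, b, with 87 cells, was sequenced once and left out of the table, and it served here as a library that played no part in naming the genes. The sources used here do not say how many litters or embryos a plate holds, so p-values measure only the spread between plates, which may be technical.

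Midkine and pleiotrophin are small secreted, basic, heparin-binding proteins that form a family of their own. They bind the sulfated sugar chains of proteoglycans and act through several cell-surface proteins, among them the receptor tyrosine phosphatase PTPRZ1, the receptor tyrosine kinase ALK, the syndecans and the endocytic receptor LRP1, and they also bind nucleolin, a nucleolar protein that can reach the cell surface. Both ligands are known from developing epithelia and mesenchyme, where they take part in growth, survival and migration of cells.

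The 2 ligands are related in sequence, so it matters for a comparison of their reads whether transcripts of the genes can be told apart. In the coding sequences of the transcripts Mdk-201 (420 bases) and Ptn-201 (504 bases), 279 of 416 aligned bases (67.1%) were identical. To show how far the ligands differ base by base, the window of 150 bases with the most identical positions among windows that align without a gap is given. Capitals mark bases that are the same in both genes.
Mdk, coding bases 199 to 348, minus strand, chr2:91930867-91931132, exons 3 to 4: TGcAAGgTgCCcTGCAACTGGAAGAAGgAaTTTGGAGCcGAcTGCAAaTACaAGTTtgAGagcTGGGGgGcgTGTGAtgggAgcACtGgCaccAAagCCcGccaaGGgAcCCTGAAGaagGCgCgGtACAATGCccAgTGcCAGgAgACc
Ptn, coding bases 253 to 402, minus strand, chr6:36741327-36743363, exons 3 to 4: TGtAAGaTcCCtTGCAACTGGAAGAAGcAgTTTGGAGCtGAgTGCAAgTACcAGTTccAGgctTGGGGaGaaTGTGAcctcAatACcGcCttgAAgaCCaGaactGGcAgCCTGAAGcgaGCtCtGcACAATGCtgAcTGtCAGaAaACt
In this window 99 of 150 bases (66.0%) were identical, and the longest unbroken run was 15 bases. No pair among the 45 pairs of the 10 genes shared a run of 31 bases in any protein-coding transcript, and the longest shared run, 29 bases, was between Sdc3 and Sdc4. Sequences and positions are from GENCODE vM21 on GRCm38, the build of the deposited counts.

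On GRCm38, Mdk lies at chr2:91929805-91932297 and Ptn at chr6:36714929-36810220, both on the minus strand. The phosphatase gene Ptprz1 lies on the plus strand at chr6:22875502-23052916, and the kinase gene Alk on the minus strand at chr17:71868972-72604627. The syndecan genes lie at chr12:8771323-8793715 (Sdc1, plus), chr15:32920723-33034935 (Sdc2, plus), chr4:130792537-130826319 (Sdc3, plus) and chr2:164424247-164443887 (Sdc4, minus). Lrp1 lies at chr10:127538161-127621148 and Ncl at chr1:86344719-86359400, both on the minus strand. Exons of Sdc3 overlapped those of antisense genes over 463 bases, and exons of Ncl held small RNA genes over 272 bases, and the sources do not say whether counting used strand. The other 8 genes shared no exonic base with another gene.

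Reads of protein-coding genes over the cells kept ranged from 11674156 to 17545016 per plate, and molecules of the first run from 125116 to 467695 per plate, with the lowest molecule total on plate a of E10.5. Plate b of E12.5 had 6527627 reads and 142476 molecules. Levels are given as CPM, the reads of a gene on a reads-per-million scale of all protein-coding reads, taken over all cells kept from a plate. Epcam was found by reads in 82.0% of E10.5 and 91.0% of E12.5 cells, but Plet1 in 41.3% and 15.2%. Foxn1, which defines thymic epithelium, was between 0 and 1.53 CPM on the E10.5 plates and between 164 and 277 CPM on the E12.5 plates. The list of 9 neural markers summed to 1363 to 3015 CPM at E10.5, with 7 to 9 of them at 10 CPM or more, and to 1291 to 1742 CPM at E12.5, with 3 to 4. Neural-like cells formed a cluster of their own at E10.5 (below), and the parathyroid marker list of 6 genes reached 2827 to 8774 CPM at E12.5, so both stages held other cell types than thymic epithelium. Endothelial, haematopoietic and erythroid lists summed to at most 24.98, 63.2 and 5.49 CPM on any plate. In such sums, fewer cells of a type and less RNA per cell cannot be told apart.

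Mdk was the more abundant ligand at both stages and was lower at E12.5, whereas Ptn was higher at E12.5. Mdk stood at 5469, 6826, 5979 and 7423 CPM on plates a, b, c and d of E10.5, and at 2129, 2288, 2280.1 and 2466 CPM on the 4 E12.5 plates in their order. The stages did not overlap, and each E12.5 plate lay below the lowest E10.5 plate. The mean fell from 6424 ± 869.8 CPM to 2291 ± 138 CPM (SD, n = 4 plates), and the fitted log2 fold change was -1.57 (SE 0.25). Ptn stood at 188, 136, 231 and 124 CPM on the E10.5 plates and at 1482, 836, 939.8 and 894 CPM on the E12.5 plates. In reads the E12.5 plates again lay apart, with plate a the highest. In molecules of the first run, scaled to the molecules of each plate, the stages overlapped. Plate a of E10.5, at 208 CPM, lay just above plate e of E12.5, at 205 CPM. Plates b, c and d of E10.5 lay lower, between 21.1 and 54.3 CPM, and plate c of E12.5 was the highest, at 699 CPM. In reads the mean of Ptn rose from 169.6 ± 49.3 CPM to 1038 ± 299 CPM (SD, n = 4). The log2 fold change was 2.55 (SE 0.25). Both genes were named for this difference, so it is a description and no test is given. For reference, 6.24% of the 11499 genes tested between the stages passed an adjusted p of 0.05 (3.8% higher and 2.44% lower at E12.5).

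Plate b of E12.5 gave 1907 CPM for Mdk and 1156 CPM for Ptn. These values lay below every E10.5 plate for Mdk and above every E10.5 plate for Ptn. The mesenchyme of the primordium is also known as a source of pleiotrophin, and the 10 mesenchymal markers summed to 146 to 287 CPM at E10.5 and to 12.52 to 60.4 CPM at E12.5. Between 2 and 5 of these 10 markers reached 10 CPM on an E10.5 plate and between 0 and 3 on an E12.5 plate. Prrx2 (58.5 to 107 CPM) and Col1a2 (39.1 to 118 CPM) were the highest of them at E10.5. At E12.5 Prrx2 reached at most 9.45 CPM and Col1a2 at most 15.4 CPM. Prrx1 was at 0 on all 4 E12.5 plates and Col3a1 on all 4 E10.5 plates. Within E12.5, plate a had both the highest Ptn in reads and the highest mesenchymal sum (60.4 CPM, against 12.52 to 28.3 CPM on the other plates). The other plates did not follow this order. Plate c had the lowest Ptn, 836 CPM, with a sum of 28.3 CPM, and plate b, with Ptn at 1156 CPM, had a sum of 15.3 CPM. The cells had been sorted for EPCAM, an epithelial protein, and the part of mesenchymal RNA in the Ptn values was not tested.

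**Figure D1:**
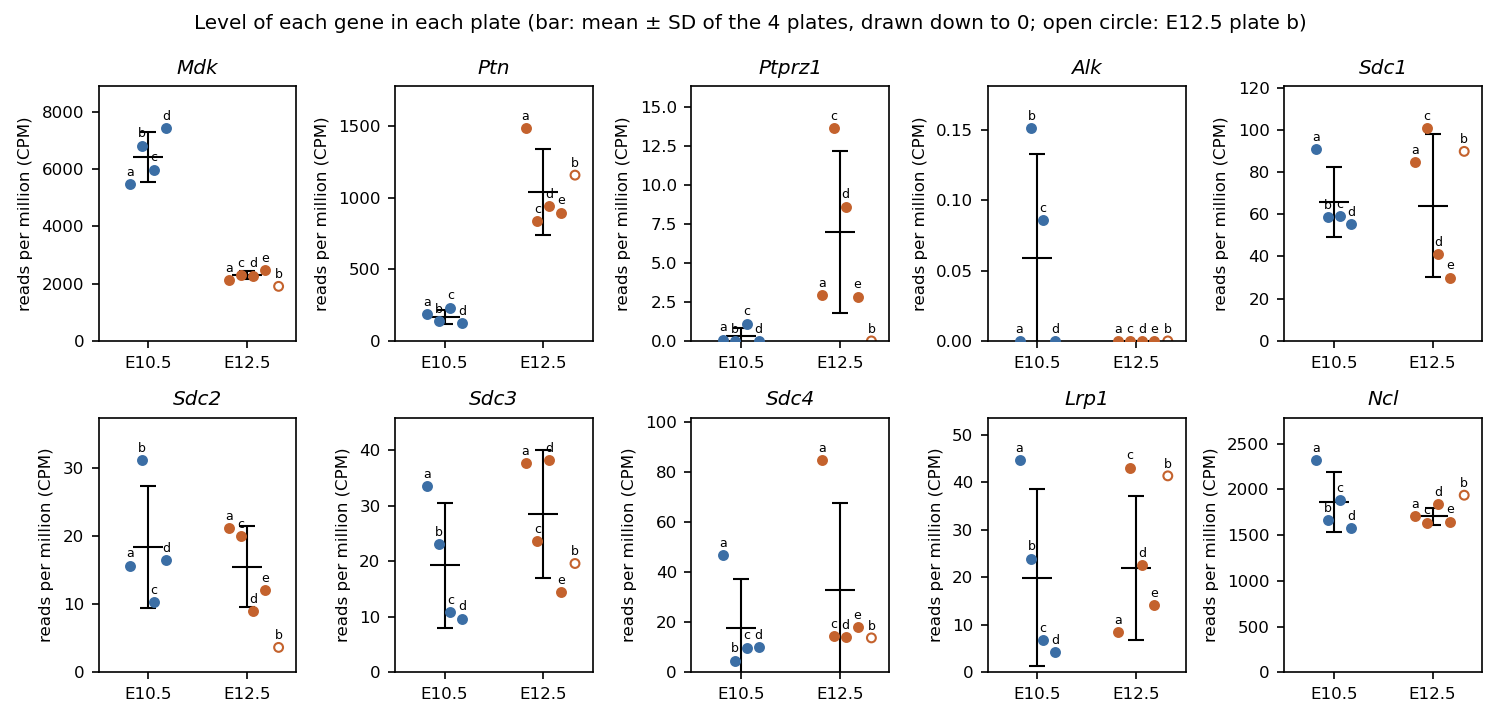
Level of the 10 genes in every plate, as CPM of protein-coding reads (linear axes from 0). Filled points are the 8 plates of the deposited table, black bars are the mean ± SD over the 4 plates of a stage, and the open circle is E12.5 plate b. In reads, Mdk and Ptn separate the stages without overlap. The ranges of the receptors overlap, except for Ptprz1 on the 8 plates of the table. Plate b of E12.5 has Ptprz1 at 0 CPM, within the E10.5 range.

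The balance of the ligands moved towards Ptn, but Mdk still led on every E12.5 plate. Ptn took 3.32%, 1.95%, 3.72% and 1.64% of the reads of both ligands on plates a, b, c and d of E10.5, and 41.0%, 26.7%, 29.2% and 26.6% on plates a, c, d and e of E12.5. The mean share was 2.66 ± 1.0% and 30.9 ± 6.86% (SD, n = 4 plates), and it was 37.7% on plate b of E12.5. Mdk reads thus exceeded Ptn reads 25.9- to 59.8-fold on an E10.5 plate and 1.44- to 2.76-fold on an E12.5 plate. Ptn has the longer exons (3433 against 1324 bases), and per kilobase of exon its mean share was 1.04% at E10.5 and 14.9% at E12.5. Reads that carry a molecular index need not scale with exon length, so this division may lower the Ptn share too far. By molecules of the first run, the share was 2.15 ± 2.80% at E10.5 and 20.8 ± 10.53% at E12.5. The molecule shares spread more, from 0.379% to 6.31% at E10.5 and from 9.38% to 30.2% at E12.5, without overlap. In the sums of whole plates the change was therefore a shift of the balance, with Mdk still in the lead. The summed level of both ligands went from 6594 ± 831 CPM to 3329 ± 212 CPM, so the added Ptn was smaller than the loss of Mdk on this scale.

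**Figure D2:**
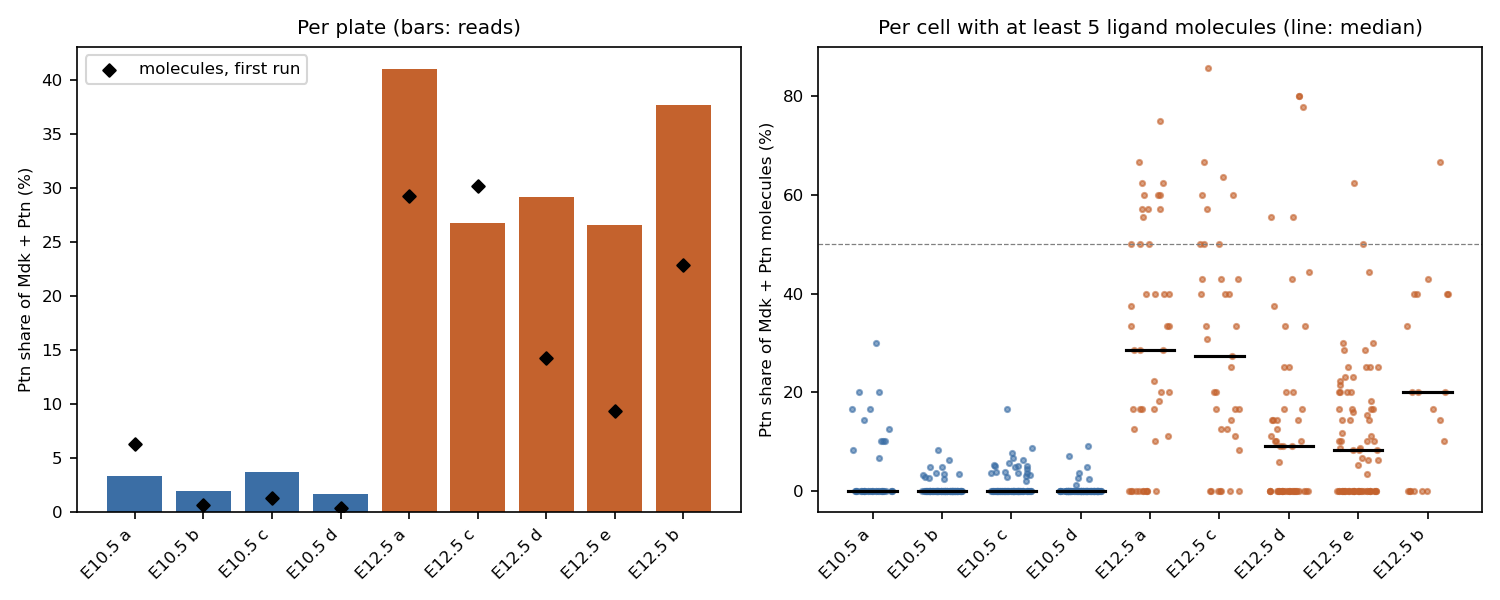
Share of Ptn among Mdk and Ptn, in percent. In the left panel, bars are reads per plate and diamonds are molecules of the first run, and in the right panel each point is a cell with at least 5 ligand molecules and the line is the plate median, with 50% dashed. Every E12.5 bar is above every E10.5 bar, no bar reaches 50%, and 23 cells of the 4 E12.5 plates lie above the dashed line.

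In single cells, Mdk was found in nearly all cells and Ptn in fewer, and the share with Ptn depended on whether molecules or reads were counted. At least 1 Mdk molecule was found in 352 of 356 E10.5 cells (98.9%, 95% interval 97.1 to 99.7, exact binomial) and in 331 of 355 E12.5 cells (93.2%, 90.1 to 95.6). A Ptn molecule was found in 60 of 356 E10.5 cells (16.9%, 13.1 to 21.2) and in 204 of 355 E12.5 cells (57.5%, 52.1 to 62.7). By at least 1 read over both runs, which is deeper, Ptn was found in 222 E10.5 cells (62.3% as a mean over plates) and in 317 E12.5 cells (89.4%). Intervals cover counting error only. The median cell held 18.5 Mdk and 0 Ptn molecules at E10.5 and 4 Mdk and 1 Ptn molecules at E12.5. Counts of a gene outside its own cell type were taken as a measure of background, and the source of such counts was not tested. A molecule of Pth, the parathyroid hormone gene, was found in 41 of 42 parathyroid-like cells but in 5 of 260 cTEC-like cells (1.92%). The median depth was 2102.5 and 3244 molecules. Krt5, a keratin gene of the mTEC progenitor-like cells, was found in 1 of 83 neural-like cells, at a median of 3754 molecules. Of these 83 cells, 81 were from E10.5 plates, and all 31 mTEC progenitor-like cells were from E12.5 plates. The Krt5 share is therefore no measure of background within a plate and is not used below. A molecule of Tubb3, a neuronal tubulin gene, was found in 3.73% of the 295 cells of the unnamed clusters described below, at a median of 3699 molecules. By molecules, Ptn detection at both stages was above the background shares of Pth and Tubb3. By at least 1 read the same measures were 68.5% for Pth and 47.8% for Tubb3. The share of E10.5 cells with a Ptn read, 62.3%, lay between them. The Pth share is from E12.5 plates, where parathyroid-like cells held a mean of 61.4 Pth molecules, so it need not hold for Ptn at E10.5. What part of the E10.5 Ptn reads was background was not tested. The sources do not give the content of the 32 wells outside the table. The 16 in positions A01 and A02 held 366 to 2088 molecules each, with 1 Mdk and 0 Ptn among 17754 in all. The 16 in positions H11 and H12 held 2 to 81 molecules each, with 2 Mdk and 0 Ptn among 453 in all.

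Both ligands were most often found together in E12.5 cells. Cells with at least 1 molecule of each made up 17.1 ± 8.54% of the cells of an E10.5 plate (range 7.61% to 24.7%) and 54.6 ± 3.55% of an E12.5 plate (range 49.4% to 57.1%, SD, n = 4). On plate b of E12.5, 33 of 87 cells (37.9%) held both, between the ranges of the stages. Cells with Mdk only fell in number from 292 to 137, and cells with Ptn only were 0 at E10.5 and 10 at E12.5. Neither ligand was found in 4 E10.5 and 14 E12.5 cells. Of the 204 E12.5 cells with Ptn, 194 also held Mdk, where 93.2% of all E12.5 cells did. Ptn without Mdk was more frequent under some other settings, in 18 E12.5 cells against 89 with both at a minimum of 2 molecules, in 15 against 90 with cells thinned to 2000 molecules and in 29 against 84 thinned to 1000. It was not under others, with 12 E12.5 cells against 229 by molecules of both runs and 3 against 314 by reads. By reads, both ligands were found in 62.3% of the cells at E10.5 (range over plates 35.2% to 81.5%) and in 88.5% at E12.5 (81.1% to 96.6%). Depth touches these shares. With each cell thinned to 2000 molecules, which left 274 E10.5 and 259 E12.5 cells, 9.43% and 39.1% of the cells held both as a mean over plates. Thinned to 1000 molecules (331 and 350 cells), the means were 7.08% and 24.0%. At 1000 molecules the plate ranges met, from 0 to 19.0% at E10.5 and from 12.9% to 41.4% at E12.5, with the highest E10.5 value on plate a, where 62 of 88 cells belonged to a shallow cluster described below.

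**Figure D3:**
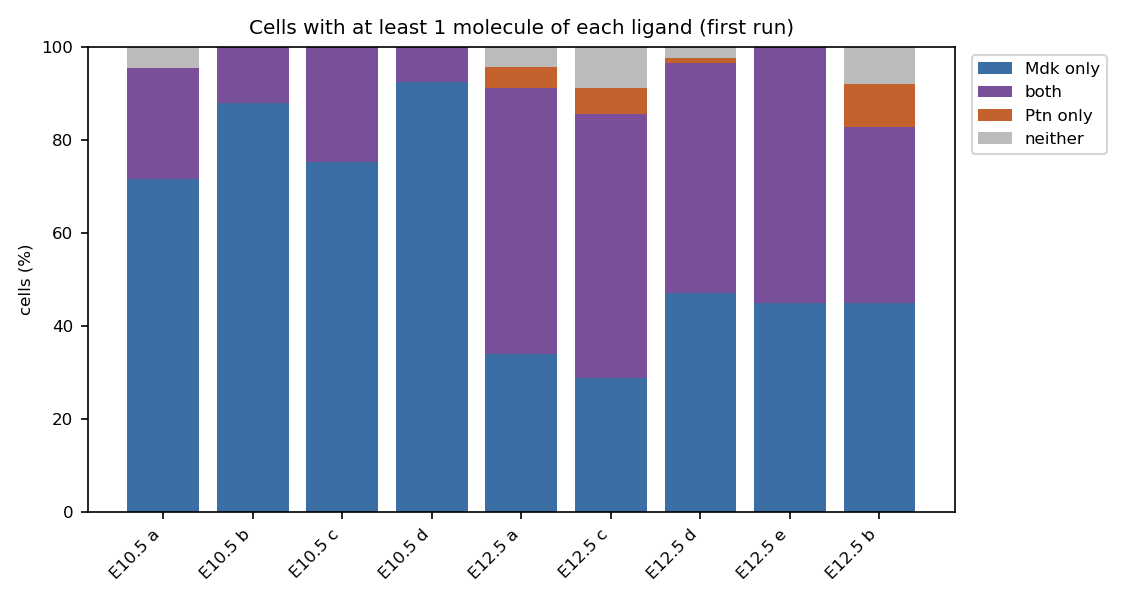
Cells of each plate by ligand, in percent, as stacked bars: cells with at least 1 molecule (first run) of Mdk only, of both, of Ptn only or of neither. Cells with both make up 7.61% to 24.7% on the E10.5 plates and 49.4% to 57.1% on the 4 E12.5 plates of the table.

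By molecules few cells carried more Ptn than Mdk, and by reads more did. Among cells with at least 5 ligand molecules, 0 of 308 at E10.5 and 23 of 217 at E12.5 (10.6%) held more Ptn than Mdk molecules. The 23 cells came from plates a (11 cells), c (6), d (5) and e (1). By reads of both runs, 0 and 47 of the same cells (21.7%) had more Ptn than Mdk. Among all cells, with no minimum, these were 1 of 356 at E10.5 and 86 of 355 at E12.5 (24.2%), with 31 of 91 cells on plate a, 21 of 90 on c, 18 of 85 on d and 16 of 89 on e, and 25 of 87 on plate b. By molecules with no minimum, 3 of 356 E10.5 cells and 43 of 355 E12.5 cells (12.1%) held more Ptn than Mdk. Of the cells with at least 5 ligand molecules, 83.4% had no Ptn molecule at E10.5 and 35.5% at E12.5, and none lacked Mdk. Their median Ptn share per cell was 0% on each E10.5 plate. It was 28.6%, 27.3%, 9.09% and 8.33% on plates a, c, d and e of E12.5, so the E12.5 plates differed among themselves, and the deeper plates d and e were the lower. Whether depth takes part in that order was not tested.

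The cells were grouped into 8 clusters without use of the 10 genes. At E12.5 there were a pair of cTEC-like clusters (cortical thymic epithelium) with 147 and 113 cells, the latter with Ppp1r27, Psmb11 and Tbata as its leading genes, an mTEC progenitor-like cluster (medullary lineage) of 31 cells and a parathyroid-like cluster of 42 cells. At E10.5 there were a neural-like cluster of 83 cells and 3 clusters that could not be named from their markers, of 140 cells (led by Ptges, Hoxc4 and Aldh1a1), 78 cells (led by Slc2a3, Lef1 and Foxe1) and 77 cells. Of the last, 62 cells were from plate a of E10.5, and its median depth was 1331 molecules. In the 3 unnamed clusters, in the same order, 8, 7 and 7 of 9 pharyngeal endoderm markers reached 10 CPM. Among lists with at least 3 markers at that level, the mesenchymal list had the highest mean log2 ratio in each, at 0.083, 0.594 and 0.442. It had 3, 4 and 4 of its 10 markers at 10 CPM. The endoderm list had ratios of -0.237, -0.629 and -0.031. Its marker Plet1 was among the 10 leading genes of the cluster of 140 cells. The cluster of 147 cells was named from its summed marker list (8 of 8 cTEC markers at 10 CPM or more), but no cTEC marker was among its 10 leading genes, which began with Trpc4 and Six2. Comparisons of clusters are descriptions, since the cells that gave the clusters also gave the values.

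Ptn differed between the E12.5 cell types more widely than Mdk did. Ptn was at 1303 ± 354 and 1283 ± 363 CPM in the cTEC-like clusters of 147 and 113 cells, at 419 ± 185 CPM in mTEC progenitor-like cells and at 63.2 ± 105 CPM in parathyroid-like cells (SD over 4 plates each). The lowest cTEC-like sum of a plate was 857 CPM, and the highest was 638 CPM in mTEC progenitor-like and 221 CPM in parathyroid-like cells, so neither reached the cTEC-like range. The mTEC progenitor-like value depended on the clustering. With 10 principal components in place of 20, that class took in 98 cells and stood at 1393 ± 881 CPM, and with 30 it stood at 274 ± 152 CPM. A Ptn molecule was found in 68.7% and 74.3% of the cells of the cTEC-like clusters, in 11 of 31 mTEC progenitor-like cells (35.5%, 19.2 to 54.6) and in 3 of 42 parathyroid-like cells (7.14%, 1.498 to 19.5). The last interval holds the background shares of Pth and Tubb3 above. By molecules of both runs Ptn stood lower and spread more, at 772 ± 454 CPM in all cTEC-like cells, 255 ± 181 CPM in mTEC progenitor-like and 24.7 ± 31.1 CPM in parathyroid-like cells.

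Mdk in the same clusters was at 2568 ± 180 and 1576 ± 436 CPM in cTEC-like cells, at 2702 ± 629 CPM in mTEC progenitor-like cells and at 2368 ± 620 CPM in parathyroid-like cells. Sums of a plate ranged from 1068 to 3356 CPM over these 4 clusters, with the cluster of 113 cells the lowest. On plate c of E12.5 the 20 cells of that cluster held more Ptn, 1285 CPM, than Mdk, 1068 CPM, and in the sums of each other plate and cluster Mdk led. The E10.5 cells of the other clusters held more. Their sums ranged from 5469 to 7346 CPM over 4 plates in the cluster of 140 cells, from 6740.4 to 8294 CPM over 3 plates in that of 78 cells and from 3981 to 8226 CPM over 4 plates in neural-like cells, and plate a gave 5819 CPM in the cluster of 77 cells. The lower Mdk of E12.5 was therefore seen across the E12.5 clusters and the higher Ptn mostly in cTEC-like cells. In E10.5 cells Ptn was low but not absent. Its sums were between 45.7 and 174 CPM over 4 plates in the cluster of 140 cells, at 225 ± 103 CPM over 3 plates in that of 78 cells and at 82.6 ± 32.3 CPM over 4 plates in neural-like cells. On plate a of E10.5 it was at 254 CPM in the 62 cells of the cluster of 77 cells.

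Cells with both ligands followed the same order. They were 97 of 147 (66.0%, 57.7 to 73.6) and 79 of 113 (69.9%, 60.6 to 78.2) in the cTEC-like clusters, 11 of 31 (35.5%) in mTEC progenitor-like, 2 of 42 (4.76%) in parathyroid-like and 8 of 83 (9.64%) in neural-like cells. Among the unnamed clusters they were 17 of 140 (12.1%), 20 of 78 (25.6%) and 20 of 77 (26.0%). Among cells with at least 5 ligand molecules, the 23 with more Ptn than Mdk molecules were 13 and 9 cells of the cTEC-like clusters and 1 cell of the unnamed cluster of 78 cells. A few E12.5 cells fell into clusters made mostly of E10.5 cells. In the cluster of 140 cells, its 8 E12.5 cells pooled to 3092 CPM Mdk and 50.6 CPM Ptn, against 6612 and 143 CPM in its 132 E10.5 cells. In the cluster of 77 cells, the 11 E12.5 cells pooled to 4446 CPM Mdk and 157 CPM Ptn.

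**Figure D4:**
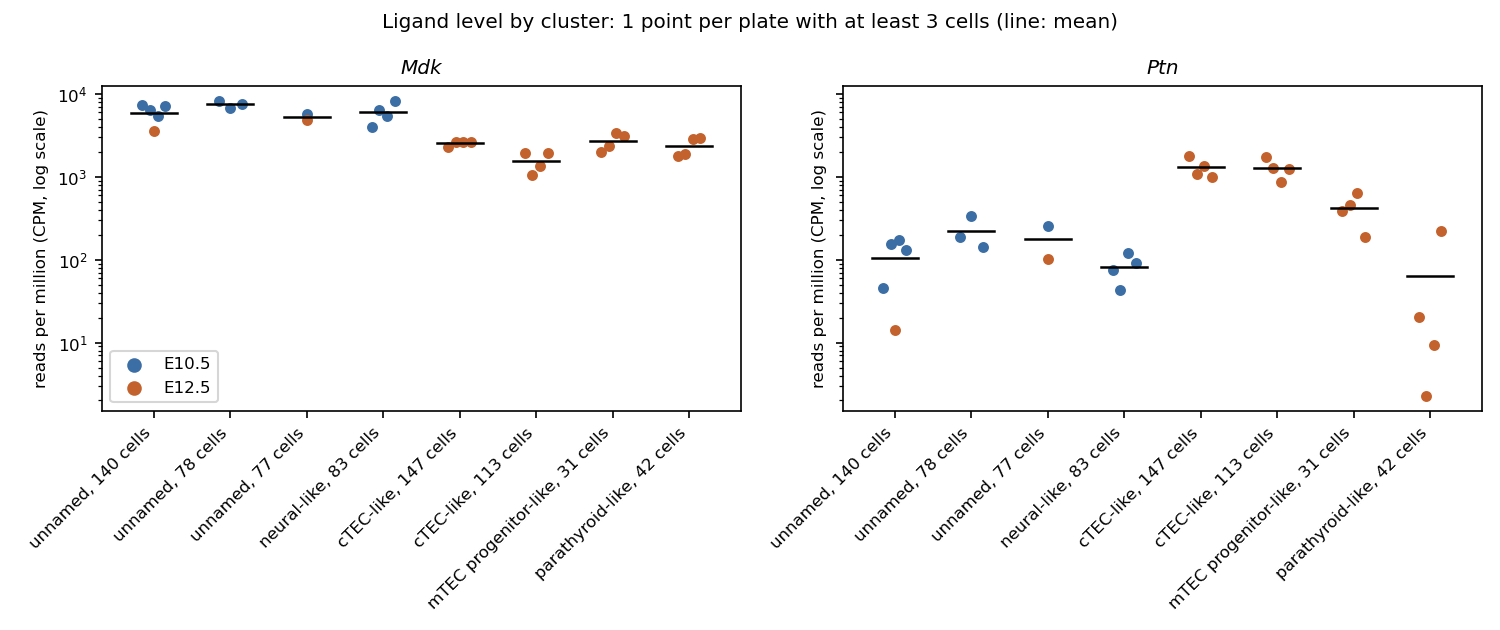
Mdk (left) and Ptn (right) by cluster, in CPM on a logarithmic axis. Each point sums the cells that a plate gave to a cluster, where there were at least 3, coloured by stage, and the line is the mean. Ptn of cTEC-like sums lies at or above 857 CPM and that of parathyroid-like sums at or below 221 CPM, whereas Mdk of the 4 clusters made of E12.5 cells lies between 1068 and 3356 CPM.

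Which receptors were present was asked next. Of the 8 receptor genes, 7 had enough reads to be tested between the stages, and 0 of 7 passed a Benjamini-Hochberg adjusted p of 0.05 by the quasi-likelihood test of edgeR, beside 6.24% of all genes. With an unadjusted p under 0.05 there was 1 of 7 (Ptprz1), beside 17.5% of all genes, and DESeq2 called 1 of 7, beside 11% of all genes. A p that misses the threshold does not show equal levels.

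PTPRZ1, the phosphatase that both ligands are known to bind and inactivate, was barely detected. Ptprz1 stood at 0.0795, 0, 1.11 and 0 CPM on plates a, b, c and d of E10.5 and at 2.92, 13.6, 8.61 and 2.84 CPM on plates a, c, d and e of E12.5. The stages did not overlap on these plates, but the E10.5 level came from 14 reads in all. Plate b of E12.5 had 0 reads of Ptprz1, as had plates b and d of E10.5, so with it the stages did overlap. The fitted log2 fold change was 4.47 (SE 1.59, edgeR adjusted p = 0.15), and Ptprz1 was higher at E12.5 in each of 17 alternative settings. It passed the threshold in 2 of the 17, with an adjusted p of 0.021 in DESeq2 and 0.037 in edgeR without plate c of E10.5, and the others gave an adjusted p of 0.13 to 0.39. The reads were uneven between cells of E12.5. Parathyroid-like cells, an E12.5 cluster described above, held 0, 65.7, 67.3 and 0 CPM on plates a, c, d and e, with a molecule in 2 of 42 cells, and the cTEC-like clusters had means of 1.25 and 2.65 CPM. On plate c, 7 cells of the unnamed cluster of 77 cells held 48.6 CPM, and on plate d, 7 mTEC progenitor-like cells held 24.6 CPM. Without neural-like and parathyroid-like cells the log2 fold change was 3.22 (edgeR adjusted p = 0.39). In molecules, E10.5 had 3 and E12.5 had 10, a 4.04-fold ratio (95% counting interval 1.04 to 22.8). They lay in 3 of 356 (0.843%) and 9 of 355 cells (2.54%, 1.17 to 4.76), against background shares by molecules of 1.92% (Pth) and 3.73% (Tubb3) above, and plate b of E12.5 held none. Alk, the receptor tyrosine kinase gene, was below the filter, with 3 reads and 2 molecules at E10.5 and 0 of both at E12.5. By a floor of 3 counts, 0 of 355 cells allows a share of cells with a molecule of up to 0.845%, and the exact binomial limit is 1.03%. By at least 1 read over both runs, Ptprz1 was found in 4 of 356 E10.5 cells (1.12%) and in 19 of 355 E12.5 cells (5.35%, 3.25 to 8.23), and in 4.49% to 5.88% of the cells of an E12.5 plate. The background shares by reads above were 47.8% (Tubb3) and 68.5% (Pth), both for genes abundant in 1 cluster, which Ptprz1 was not. At this depth, neither of the signalling receptors classically tied to these ligands was detected by molecules in more than 2.54% of the cells of a stage.

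The syndecans, transmembrane heparan sulfate proteoglycans that act as low-affinity receptors and co-receptors, were the main cell-surface candidates measured. Sdc1, the epithelial syndecan, stood at 90.8, 58.5, 59.2 and 55.1 CPM on the E10.5 plates and at 84.6, 101, 41.2 and 29.9 CPM on the E12.5 plates. Plates of the 2 stages overlapped fully. The log2 fold change was -0.14 (SE 0.35, edgeR adjusted p = 0.89). Sdc2 ranged from 10.3 to 31.2 CPM at E10.5 and from 9.01 to 21.2 CPM at E12.5 (log2 fold change -0.36, SE 0.51, edgeR adjusted p = 0.79). Sdc3, best known from neural tissue, ranged from 9.68 to 33.5 CPM and from 14.4 to 38.2 CPM (log2 fold change 0.53, SE 0.48, edgeR adjusted p = 0.64). Neither gene separated the stages. The direction turned in 3 of 18 alternative settings for each of Sdc1 and Sdc2 and in 0 of 18 for Sdc3.

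Sdc4, a widely expressed syndecan of focal adhesions, passed the threshold in molecules but not in reads. Its reads gave 46.7, 4.75, 9.94 and 9.96 CPM on the E10.5 plates and 84.8, 14.5, 14.1 and 18.1 CPM on the E12.5 plates. Plate a was the highest at both stages, and the log2 fold change was 0.85 (SE 0.75, edgeR adjusted p = 0.62). In molecules of the first run, 2, 2, 2 and 3 were counted on the E10.5 plates and 11, 10, 11 and 5 on the E12.5 plates, with no overlap of the counts. Scaled to the molecules of each plate the stages did overlap, since plate a of E10.5, at 15.99 CPM, lay above plate e of E12.5, at 10.7 CPM. Pooled over plates the scaled ratio was 4.98 (counting interval 2.36 to 11.7). The edgeR fit to molecules of both runs gave a log2 fold change of 1.85 (SE 0.53, adjusted p = 0.029), a fit in which 10.2% of all genes passed. The fit to reads gave 1.76 without plate a of E10.5 (adjusted p = 0.20) and -0.08 without plate a of E12.5 (adjusted p = 0.97), so its size and direction in reads rested on these plates. A molecule of Sdc4 was found in 9 of 356 E10.5 cells (2.53%) and in 33 of 355 E12.5 cells (9.30%), and plate b of E12.5 held 1.

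Lrp1, the large endocytic receptor of the low-density lipoprotein receptor family, stood at 44.7, 23.9, 6.85 and 4.32 CPM on the E10.5 plates and at 8.41, 43.1, 22.6 and 14.1 CPM on the E12.5 plates. The stages overlapped (log2 fold change 0.17, SE 0.71, edgeR adjusted p = 0.94), and its direction turned in 6 of 18 alternative settings, molecules among them (-0.36). Ncl, which encodes nucleolin, was by far the most abundant receptor gene, at 2322, 1665, 1886 and 1578 CPM on the E10.5 plates and at 1707, 1635, 1839.7 and 1648 CPM on the E12.5 plates. The log2 fold change was -0.17 (SE 0.19, edgeR adjusted p = 0.71). A Ncl molecule was found in 306 of 356 E10.5 cells and 316 of 355 E12.5 cells. Its RNA level does not say where in the cell the protein lies.

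Ordered by CPM per kilobase of exon, the E12.5 means were 1730 for Mdk, 302 for Ptn, 168 for Ncl, 16.8 for Sdc1, 12.9 for Sdc4, 4.76 for Sdc3, 4.41 for Sdc2, 1.24 for Lrp1 and 0.491 for Ptprz1, with Alk at 0. At E10.5 Ncl, at 183, stood above Ptn, at 49.4. The length used joins the exons of all transcripts of a gene, 10188 bases for Ncl and 3433 for Ptn. In CPM without this division Ncl, at 1708, lay above Ptn, at 1038, at E12.5, so their order turned on the length. In molecules, which need no length and are scaled as CPM, the E12.5 order was Mdk (1675 ± 278), Ncl (968 ± 121), Ptn (437 ± 227), Sdc1 (77.6 ± 22.4) and Sdc4 (37.2 ± 19.8, SD, n = 4), so Ncl lay above Ptn. Among the surface receptors Sdc1 had the highest mean at both stages on each of these scales, but the E12.5 plates of Sdc1 and Sdc4 overlapped in molecules. Sdc2, Sdc3 and Lrp1 overlapped in molecules at both stages.

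At the level of the cell, surface receptors were sparse. At least 1 molecule of any of the 7 surface receptor genes, all but Ncl, was found in 135 of 356 E10.5 cells (37.9%, 32.9 to 43.2) and in 144 of 355 E12.5 cells (40.6%, 35.4 to 45.9). Plates ranged from 20.5% to 46.7% at E10.5, with the shallow plate a the lowest, and from 33.3% to 44.9% at E12.5. Most of these were syndecans, with at least 1 syndecan molecule in 121 and 128 cells. Cells with molecules of more than 1 surface receptor were 34 and 32. Cells with and without Ptn held a receptor at overlapping shares. At E12.5 the share was 38.7% (32 to 45.8) of 204 cells with a Ptn molecule and 43.0% (35.03 to 51.3) of 151 cells without, and at E10.5 it was 21 of 60 cells (23.1% to 48.4%) and 114 of 296 cells (32.9% to 44.3%). The difference was not tested.

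Detection of the receptors by cluster was as follows, as a description. A molecule of Sdc1 was found in 28.6% (21.3 to 36.8) of the unnamed cluster of 140 cells, 27.2% (20.2 to 35.2) of the cTEC-like cluster of 147 cells and 22.6% (9.59 to 41.1) of mTEC progenitor-like cells, and in 3 of 42 parathyroid-like cells (7.14%, 1.498 to 19.5). Between these lay the unnamed cluster of 78 cells (26.9%), neural-like cells (16.9%, 9.54 to 26.7), the cTEC-like cluster of 113 cells (16.8%, 10.4 to 25.01) and the shallow cluster of 77 cells (13.0%, 6.41 to 22.6). Sdc4 was found in 6 of 31 mTEC progenitor-like cells (19.4%, 7.45 to 37.5), in 14 of 147 and 8 of 113 cTEC-like cells and in 0 of 83 neural-like cells, which allows a share of up to 3.61% by the floor of 3 counts and 4.35% by the exact binomial limit. Sdc3 was most frequent in neural-like cells (12 of 83, 14.5%, 7.70 to 23.9) and Sdc2 in parathyroid-like cells (7 of 42, 16.7%, 6.97 to 31.4). Sdc2 was found in 0 of 31 mTEC progenitor-like cells, which allows up to 9.68% and 11.2% in the same way. The counts were small and many of these intervals overlapped. Ncl was found in 67.5% to 93.6% of the cells of each cluster and was lowest in the shallow cluster of 77 cells.

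**Figure D5:**
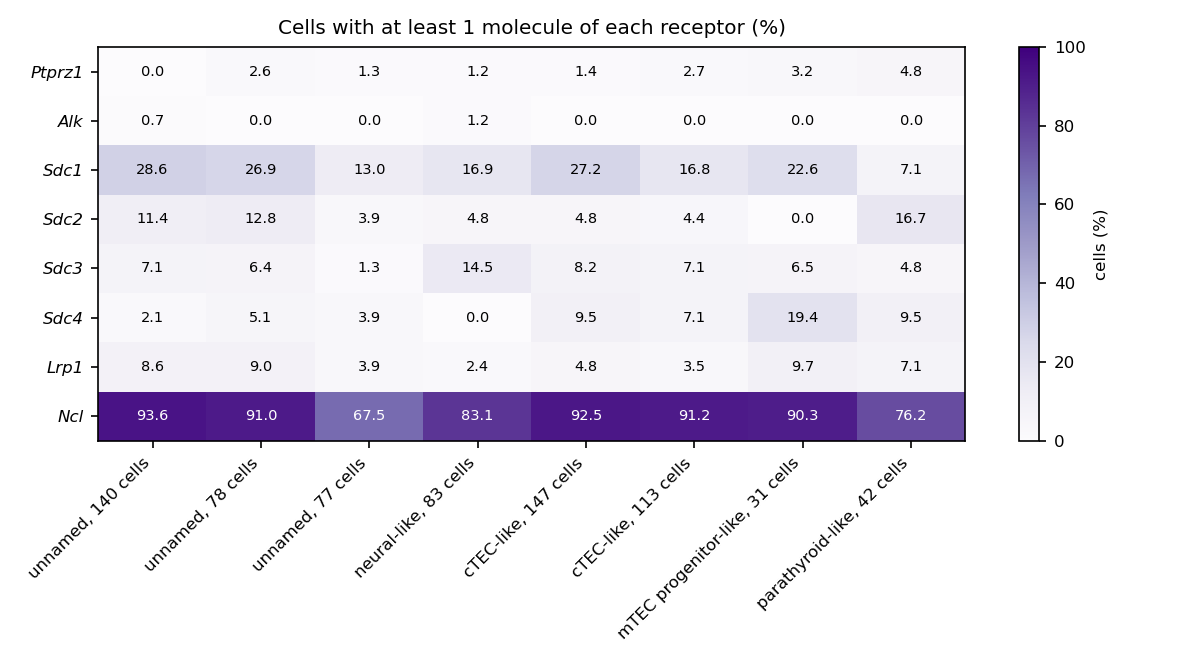
Percent of the cells of each cluster with at least 1 molecule (first run) of each receptor gene, printed in each square and coloured from 0 to 100%. Ncl is found in 67.5% to 93.6% of the cells, Sdc1 in 7.14% to 28.6%, and Ptprz1 and Alk in under 5% of every cluster.

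Genes that make or carry the sugar chains bound by the ligands, and genes that act with the receptors, were compared between the stages as 7 lists. Of 116 listed genes 94 were tested and 7 passed the threshold, 2 higher and 5 lower at E12.5, which as a share is near the 6.24% of all genes. DESeq2 called 19 of the 94, 10 higher and 9 lower, beside 11% of all genes, and 5 of these 19 were among the 10 proteoglycan core genes. In edgeR, Gpc1 of this list rose and Gpc3 fell, both encoding glypicans, heparan sulfate proteoglycans held on the membrane by a lipid anchor. Gpc1 stood at 33.8, 42.5, 41.4 and 21.9 CPM at E10.5 and at 89.3, 92.9, 106 and 101 CPM at E12.5 (log2 fold change 1.43, SE 0.30, edgeR adjusted p = 0.015). Gpc3 stood at 169.5, 95.3, 98.5 and 90.3 CPM at E10.5 and at 43.0, 41.7, 18.6 and 17.4 CPM at E12.5 (log2 fold change -1.99, SE 0.34, edgeR adjusted p = 0.0046). Neither overlapped between the stages. The call on Gpc1 was lost without plate e of E12.5 (adjusted p = 0.051).

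Of the 20 genes tested that build or edit heparan sulfate, 0 rose and 2 fell, beside 3.8% and 2.44% of all genes. Hs3st1, a 3-O-sulfotransferase, had 4.22, 25.8, 20.5 and 11.8 CPM on the E10.5 plates and 1 read in all on the 4 E12.5 plates (edgeR adjusted p = 0.0012). In molecules it had 59 at E10.5 and 0 at E12.5, which is at least 16.2-fold lower against a floor of 3 molecules over the stage, and the counting interval of the ratio reaches down to 12.8-fold. Sulf2, an extracellular sulfatase that removes 6-O-sulfates, stood at 37.0, 47.5, 34.9 and 34.1 CPM at E10.5 and at 14.3, 8.97, 4.84 and 2.84 CPM at E12.5 (log2 fold change -2.46, SE 0.50, edgeR adjusted p = 0.013). The Sulf2 call was lost in molecules (adjusted p = 0.13) and without neural-like and parathyroid-like cells (adjusted p = 0.14), and Sulf2 was at 23.4 CPM on plate b of E12.5. Of the 13 genes tested for chondroitin sulfate, the chain carried by PTPRZ1, 0 passed in edgeR, with 3 at an unadjusted p under 0.05 (17.5% of all genes) and 2 in DESeq2 (11% of all genes).

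In the 4 lists of genes downstream of and beside the receptors, 3 genes passed, a share near the 6.24% of all genes, and DESeq2 called 8, beside 11%. Among 14 PTPRZ1 substrates and ALK adaptors, Magi1, a scaffold of cell junctions, was lower at E12.5 (105.95, 39.1, 38.7 and 31.1 CPM against 22.9, 13.4, 12.54 and 17.2 CPM, log2 fold change -1.70, SE 0.42, edgeR adjusted p = 0.035). That call was lost without any 1 of 7 of the 8 plates, with adjusted p up to 0.10, and in molecules (0.46). Among 11 syndecan partners and sheddases tested, Ezr, which links membrane proteins to actin, rose from 52.5, 46.5, 85.2 and 59.9 CPM to 264, 168, 184 and 162 CPM (log2 fold change 1.58, SE 0.28, edgeR adjusted p = 0.0057) and held without each plate. Of 14 nucleolar genes, Npm1, which encodes nucleophosmin, fell from between 2937 and 4392 CPM to between 1518 and 2916 CPM (log2 fold change -0.82, SE 0.21, edgeR adjusted p = 0.038), and its call was lost without any of 6 plates, with adjusted p up to 0.13. Of 12 other receptors and ALK ligands tested, 0 passed in edgeR, with 3 at an unadjusted p under 0.05 and 2 in DESeq2, beside the same shares of all genes.

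The genes most like each ligand over 21 sums of the cells of a cluster on a plate, each of at least 10 cells, were sought among 2859 genes. These are descriptions, since the sums share plates and stages. For Ptn they were Fn1 (fibronectin, r = 0.94), Cxcl12 (a chemokine, 0.93), Cnn3 (a calponin, 0.93), Pdlim1 (a cytoskeletal adaptor, 0.92) and Pithd1 (0.92). Over the 11 sums of E12.5 alone, r lay between 0.94 and 0.98 for these 5 genes, and over the 10 sums of E10.5 between 0.11 and 0.89. Cxcl12 is also among the markers that named the cTEC-like clusters. For Mdk they were Fxyd6 (a regulator of the sodium pump, r = 0.91), Id2 (an inhibitor of transcription factors, 0.88), Tpm2 (a tropomyosin, 0.88), Tmsb10 (a thymosin, 0.87) and Crabp1 (a retinoic acid-binding protein, 0.87). Within a stage these were looser, with r between -0.30 and 0.74 at E10.5 and between 0.12 and 0.62 at E12.5, so the likeness to Mdk lay mostly between the stages. Mdk and Ptn themselves had r = -0.38 over all 21 sums, 0.19 within E10.5 and 0.03 within E12.5.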

How the data were processed

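Single EPCAM+PLET1+ cells were sorted into wells by flow cytometry, so no doublets were called. Per the file headers, the authors used the BD Precise WTA Analysis Pipeline 2.0 with GRCm38.p6 and GENCODE vM18 (the labels name STAR, HTSeq and FastQC without versions, and an earlier patch of the build). They deposited raw read counts, and molecule counts corrected for index errors, per gene and well, neither normalized. The labels call the libraries SmartSeq2, whereas the protocol is BD Precise. The 19 samples are runs of 9 plates, lettered in the titles, and reads were taken from the runs of each sample. The read table names stages and plate numbers only; it equalled, in each of its 8 plates and every gene, the sum of 2 runs of 1 letter, and was used to choose these runs and the wells. For the other repeat runs, 2 in all, no use was made. All plates used the same well positions.

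Cells had at most 50% mitochondrial reads, 40000 to 400000 reads and 500 to 5000 features, which kept 711 of 733 wells. Reads were summed per plate and tested with edgeR 4.0.16 (TMM, filterByExpr, quasi-likelihood, Benjamini-Hochberg, threshold 0.05). DESeq2 1.42.0 was an alternative. The test was checked on simulated data. Clusters were made with Seurat 5.3.0 (SCTransform, 3000 variable genes without the 10 genes and the listed genes, 20 principal components, 20 neighbours) at the lowest resolution that gave 8 clusters. They were named by the highest mean log2 ratio of marker lists where more than 50% of the markers reached 10 CPM, a rule set after the clusters were seen. Shares of cells used molecules of the first run, since a molecule can be counted in both runs. R 4.3.3, Python 3.11.15, scipy 1.17.1 and matplotlib 3.10.9 were used.

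The 10 genes and the gene lists were chosen with earlier results of these data known. The named genes are the 10 genes, the listed genes past the threshold (at most 4 per list) and, for each ligand, the 5 genes of at least 50 CPM with the highest correlation of log2(CPM + 10). P-values measure the spread between plates. Plate letters did not pair the stages (r of residuals 0.058, -0.023 and 0.021 for a, c and d). Alternatives were other size factors, no filter, molecules, all wells, the first run, plate b added, each plate left out, the letters as a block, no neural-like or parathyroid-like cells, other numbers of components, other detection limits and thinned cells.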

Additional observations from a re-analysis of the deposited data

Results flagged for a closer look

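In 48 groups of 4 plates, 9 had a plate whose gap to the others passed Dixon's 95% limit, where chance flags about 1 in 20. Of these 9, 7 concerned a plate a. On plate a of E12.5, Ptn was at 1482 CPM, Sdc4 at 84.8 CPM and the share of cells with a Ptprz1 molecule at 3.30%, each the highest of its stage. On plate a of E10.5, Sdc1 was at 90.8 CPM and Sdc4 at 46.7 CPM, the share of Ptn among ligand molecules was 6.31% and the share of cells with an Mdk molecule was 95.5%, the lowest of its stage. Plate c of E10.5 stood apart for Ptprz1, at 1.11 CPM from 13 reads. Plate d of E10.5 stood apart for the share of cells with an Sdc4 molecule, 3.26%, which is 3 cells against 2 on the other plates. The molecule total of plate a of E10.5 was the lowest of the 8 plates, and its part in these values was not tested.

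The E12.5 plate b, which the deposited read table leaves out, held Ptn at 1156 CPM, above the highest E10.5 plate (231 CPM).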

How the results depend on the processing

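Leaving out each plate in turn gave 496 to 815 genes past the threshold between the stages against 718, 0 to 1 receptor genes against 0, and 6 to 9 listed genes against 7. It kept the log2 fold change of Mdk between -1.70 and -1.41 and that of Ptn between 2.40 and 2.73, the difference in the Ptn share of ligand reads between 24.9 and 29.7 percentage points and that in cells with both ligands between 34.4 and 40.0 points. Without plate d of E10.5 the change of Mdk moved most, to -1.41. In all 18 alternatives Mdk was lower and Ptn higher at E12.5. DESeq2 called 1269 genes (11% of those tested), 1 receptor (Ptprz1) and 19 of 94 listed genes, 5 of them among 10 proteoglycans, 4 among 20 heparan sulfate genes and 3 among 11 syndecan partners. Molecules gave 1 receptor call (Sdc4), as did leaving out plate c of E10.5 (Ptprz1).

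With the replicate block over the letters a, c and d, 215 genes (1.86% of 11549) and 0 of 93 listed genes passed, against 382 (3.31%) and 2 of 93 for the same plates without the block, a comparison added after the data were seen. With 3 plates a stage the fit has fewer samples, and the letters do not pair the plates.

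The difference in cells with both ligands, 37.5 points, was 26.2 by reads, 22.7 with at least 2 molecules of each, 29.6 thinned to 2000 molecules and 16.9 thinned to 1000, the last added after the data were seen. Ptn in cTEC-like cells was 772 CPM by molecules against 1294 CPM by reads, and in mTEC progenitor-like cells 1393 CPM with 10 components. The cause of these moves was not tested. Depth limits Ptprz1, Alk and the receptor shares of the small clusters.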
